A study of Rattus norvegicus with 8 samples.

Results

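Csrnp1 and 9 transcription factor genes of the immediate early response were followed in the livers of rats given structured lipids that contain butyrate (STL). The genes were Csrnp1, Fos, Jun, Junb, Egr1, Atf3, Myc, Klf6, Cebpb and Cebpd, found by their names on the array, 10 of 35828 genes or names, with 13 probes. Csrnp1 was chosen by its measured STL minus control difference on these arrays, which placed it among the genes with the clearest difference between STL and control livers, and the other 9 were joined to it by function. That contrast was therefore known when the genes were chosen, and their differences are given as a description; intervals and counts from the fit across all genes describe the spread and are no test of these genes. The measurements were 1-colour Agilent arrays of total liver RNA of male Wistar rats, 1 array per labelled rat. The 4 control rats received 3.0 g/kg body weight of maltodextrin and the 4 STL rats 1.65 g/kg body weight of STL, by gavage, and the doses were matched for energy. All rats of both groups entered the resistant hepatocyte protocol of chemical liver carcinogenesis at week 2 of treatment and were killed at week 8, so no liver in the comparison was free of that protocol. The design calls the controls age-matched; no age in weeks is stated.

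Immediate early genes are transcribed within minutes of a stimulus from factors already present in the cell, and their RNAs are short-lived. FOS and JUN proteins pair through leucine zippers to form the AP-1 complex, and ATF3, the C/EBP proteins and other leucine zipper proteins pair in related ways. In liver these genes are known for their early response to partial hepatectomy, to cytokines of the acute phase and to injury. Such RNAs can also respond to handling and to the time between death and freezing, on which the labels give nothing.

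Each level below is the log2 of a probe's processed signal relative to the 75th percentile of its array, so that 0 is the 75th percentile and a step of 1 is a doubling. The levels of different probes are not compared as amounts of RNA. They were ranked for brightness, and they were summed for cell type markers, where the brightest probes weigh most. That percentile ranged from 304 to 605 over the arrays, and 54.2% to 62.8% of probes were well above background. Control 1 and control 2 differed over repeated spots by 1.16 times the noise between spots of 1 array, against 2.37 to 7.63 times in the other pairs of arrays. They were averaged and counted as 1 sample, which left 3 control and 4 STL samples, and the spread given here is between these samples. All 11 hepatocyte markers on the array, albumin among them, were well above background on at least 4 arrays.

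The pair of Jun and Junb probes with the most identical bases is shown because JUN and JUNB are close relatives and a probe of one could bind RNA of the other. They are written 5′ to 3′ in lower case, with capitals where both probes carry the same base when they are laid side by side.
Jun: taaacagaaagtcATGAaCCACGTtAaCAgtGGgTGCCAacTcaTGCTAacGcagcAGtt
Junb: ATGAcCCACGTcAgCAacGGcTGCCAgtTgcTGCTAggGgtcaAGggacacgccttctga
The Jun probe lies at chr5:115359410-115359469 on the minus strand and the Junb probe at chr19:24832781-24832840 on the plus strand, with coordinates in rn4, the build of the file headers. Over the 47 bases that overlap, 29 were identical, and the longest run of shared bases was 6. This Jun probe is not the one that gave the Jun levels below, which matched the Junb probe in 20 of 58 bases. No pair among the 13 probes shared a run longer than 9 bases. Probes were compared only with probes, so binding of a probe to the RNA of the other gene was not tested.

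Upstream sequence from RefSeq (GRCr8) was held for 4 of the 10 genes, Junb, Klf6, Cebpb and Egr1. The 250 bases before the annotated start are shown for Junb, Klf6 and Cebpb, 3 genes whose levels ordered the livers differently, with matches of the searched motifs in capitals.
Junb: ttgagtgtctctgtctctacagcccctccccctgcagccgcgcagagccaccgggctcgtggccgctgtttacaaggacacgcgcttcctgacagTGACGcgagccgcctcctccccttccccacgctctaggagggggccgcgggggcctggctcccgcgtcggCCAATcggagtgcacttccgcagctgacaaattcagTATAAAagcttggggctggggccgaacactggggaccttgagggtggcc
Klf6: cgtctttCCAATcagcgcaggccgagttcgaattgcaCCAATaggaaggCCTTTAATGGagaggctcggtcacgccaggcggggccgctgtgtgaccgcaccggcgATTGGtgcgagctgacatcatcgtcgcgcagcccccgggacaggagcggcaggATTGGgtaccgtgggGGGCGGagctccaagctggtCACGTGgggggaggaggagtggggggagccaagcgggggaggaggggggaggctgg
Cebpb: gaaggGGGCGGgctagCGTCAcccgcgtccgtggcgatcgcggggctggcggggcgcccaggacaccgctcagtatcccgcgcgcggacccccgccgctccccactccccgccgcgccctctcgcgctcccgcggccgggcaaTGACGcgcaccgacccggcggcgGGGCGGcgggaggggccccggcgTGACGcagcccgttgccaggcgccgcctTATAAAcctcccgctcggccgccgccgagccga
The stretches are chr19:40080876-40081125 on the plus strand for Junb, chr17:69458479-69458728 on the minus strand for Klf6 and chr3:176816755-176817004 on the plus strand for Cebpb. Both strands were searched, overlaps included. The core of the cAMP response element, TGACG, was found in Junb, Egr1 and Cebpb, and in 19.0% of all 27457 upstream stretches. The CArG box, which serum response factor binds, was found in 1.5% of all stretches. It began 201 bases before the start in Klf6, and there was a pair of them in Egr1, which began 105 and 83 bases before the start. The TATA box, TATAAA, lay in Junb and Cebpb and in 13.1% of all stretches, CCAAT in Junb, Klf6 and Egr1 and in 34.3%, the GC box, GGGCGG, in Klf6 and Cebpb and in 32.4%, and the E-box, CACGTG, in Klf6 and in 5.79%. The full cAMP response element TGACGTCA (in 1.70% of all stretches), the AP-1 site TGAGTCA (3.98%), the EGR site GCGTGGGCG (0.514%), the STAT site TTCNNNGAA (7.52%) and the C/EBP site TTGCGCAA (0.164%) had no match in the 4 genes. Among the 11912 stretches of genes tested on these arrays the shares were 52.2% for the GC box, 8.45% for the TATA box, 25.7% for TGACG, 35.7% for CCAAT, 7.57% for the E-box and 1.15% for the CArG box.

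Csrnp1 was higher in every STL liver than in any control liver. The gene encodes a cysteine- and serine-rich nuclear protein, also called AXUD1, first described as a transcript induced by axin. Its level was 0.10 in control 1, 0.06 in control 2, -0.46 in control 3 and -0.64 in control 4. In the STL livers it was 1.07, 0.79, 0.97 and 0.94 in STL 5, 6, 7 and 8. The STL livers lay close together, and the gap between the groups was wider than the whole range of the STL livers. The control mean was -0.34 ± 0.38 (SD, n = 3) and the STL mean 0.94 ± 0.12 (SD, n = 4), a log2 difference of 1.28 (SE 0.18, 95% interval 0.88 to 1.68) or 2.43-fold. The single probe of Csrnp1, at chr8:124933607-124933666 on the minus strand of rn4, was printed at 1 spot, and that spot exceeded background on each of the 8 arrays. Each column of the slide held 1 control and 1 STL array, and within the columns the difference was 0.97, 0.72, 1.43 and 1.58. The first 2 of these rest on control 1 and control 2, counted here as 1 sample, so they are not 4 separate comparisons.

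**Figure D1:**
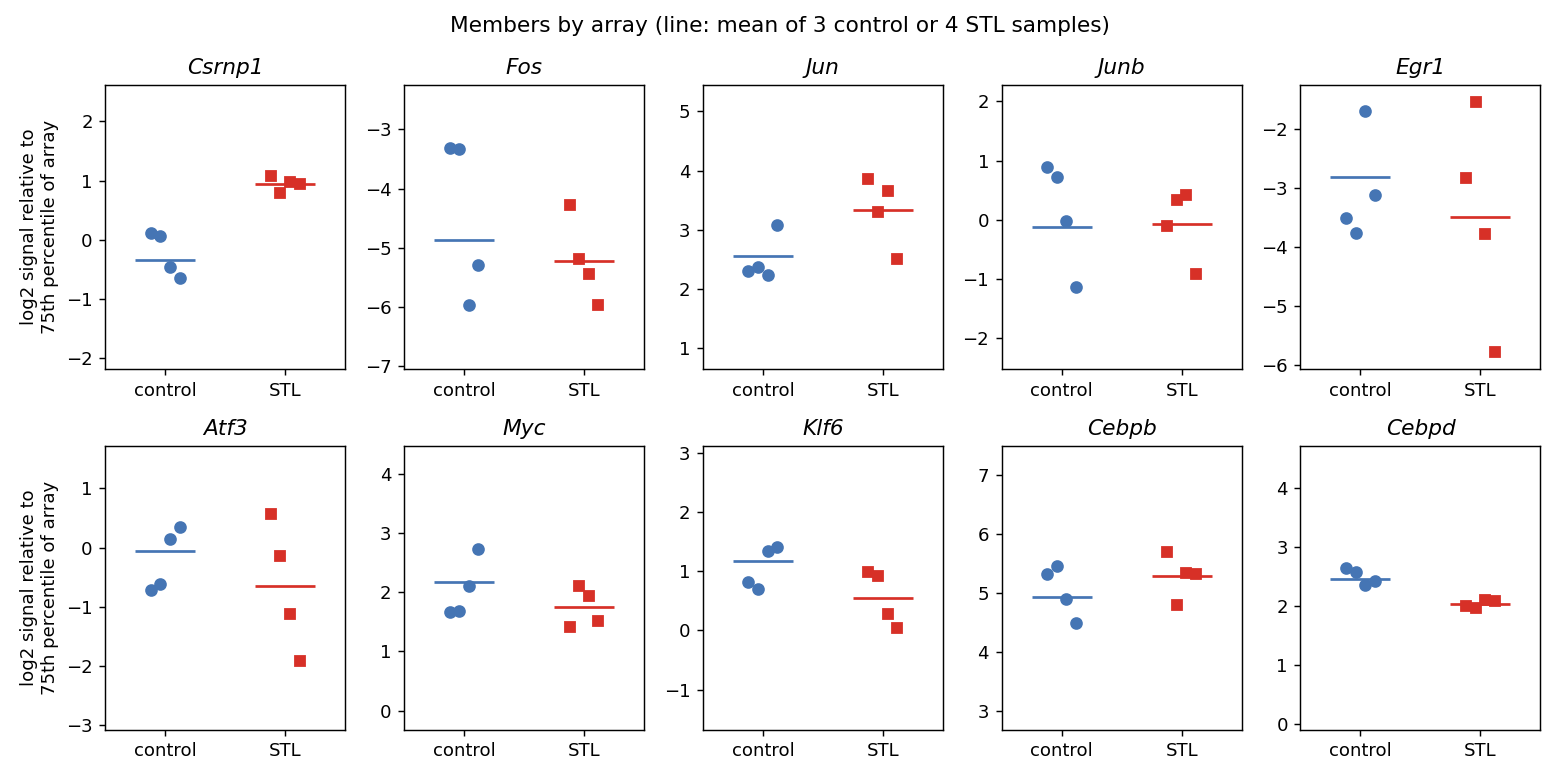
Level of each of the 10 genes on every array (vertical axis, log2 signal relative to the array's 75th percentile, the same span in each panel), with control arrays as blue circles, STL arrays as red squares and lines at the group means, which count control 1 and 2 as 1 sample. The STL squares lie wholly above the control circles for Csrnp1 and wholly below them for Cebpd, and the groups overlap for the other 8 genes.

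Jun and Junb, the AP-1 subunits of the JUN family, did not share the pattern of Csrnp1. Jun had levels of 2.30, 2.36, 2.23 and 3.08 in controls 1 to 4, and of 3.86, 3.31, 3.65 and 2.503 in STL 5 to 8. STL 8 lay among the controls and control 4 lay above STL 8, so the groups overlapped. The log2 difference was 0.78 (SE 0.33, 95% interval 0.03 to 1.53), and by the other Jun probe it was 0.37, with STL 8 the lowest of all arrays. On the probe printed at 10 spots the SD between spots of 1 array was at most 0.047, against 0.55 between livers of 1 group. Junb, by contrast, was highest in control 1 (0.90) and control 2 (0.73), and lowest in control 4 (-1.14). In control 3 it was -0.03, and in STL 5 to 8 it was -0.11, 0.33, 0.42 and -0.92. The difference was 0.05 (SE 0.46, 95% interval -1.01 to 1.102), and the interval leaves room for a change of about 2-fold either way. Without control 4 the difference was -0.47, and without STL 8 it was 0.33.

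Fos, the partner of JUN proteins in AP-1, was near the detection limit. Its probe was well above background on 3 of the 8 arrays, which were control 1 (-3.32), control 2 (-3.34) and STL 5 (-4.27). On the other 5 arrays it read between -5.97 and -5.19 and was not well above background. Fos was therefore left out of the fit across genes, and 9 of the 10 genes passed that filter. Atf3, a leucine zipper factor induced by stress that can act as a repressor, was measured on all arrays. Its levels were -0.71, -0.61, 0.14 and 0.34 in controls 1 to 4 and 0.56, -0.15, -1.13 and -1.92 in STL 5 to 8. STL livers held both the highest and the lowest Atf3 level, and the difference was -0.60 (SE 0.54, 95% interval -1.82 to 0.62). It was -0.18 without STL 8, -0.40 without control 4 and -1.01 without STL 5.

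Egr1 and Klf6 encode zinc finger factors, and STL 8 was lowest in both. Egr1, a factor that follows growth factor and MAP kinase signals, had levels of -3.52, -3.77, -1.71 and -3.12 in controls 1 to 4. In STL 5 to 8 they were -2.83, -1.55, -3.79 and -5.77, and STL 8 was the 1 array on which the probe was not well above background. The SD between livers of 1 group was 1.52, a spread exceeded by few genes, with 99.6% of the genes tested below it. That spread comes from a probe printed at 1 spot. With normexp background, which included an offset of 50, the difference was 0.03 with an SE of 0.33. Such an offset draws low signals together, so the part of the background correction in the spread was not tested. The difference of -0.66 (SE 0.90, 95% interval -2.70 to 1.37) was 0.10 without STL 8, -0.11 without control 3 and -1.31 without STL 6. Klf6, a Krüppel-like factor known as a growth suppressor in liver, had levels of 0.81, 0.70, 1.34 and 1.41 in controls 1 to 4 and of 0.99, 0.92, 0.27 and 0.03 in STL 5 to 8. STL 5 and STL 6 lay between the controls, and STL 7 and STL 8 below all of them. Its difference was -0.62 (SE 0.27, 95% interval -1.22 to -0.0076) by the probe of the fit and -0.72 by the other probe.

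Myc, which drives ribosome production and cell growth, was highest in control 4. Its levels were 1.67, 1.68, 2.11 and 2.73 in controls 1 to 4 and 1.42, 2.10, 1.94 and 1.51 in STL 5 to 8. Control 1 and control 2 lay within the STL range. The difference was -0.43 (SE 0.26, 95% interval -1.02 to 0.16), and -0.15 without control 4.

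The C/EBP genes went different ways. Cebpd, an acute phase factor that cytokines induce, was lower in every STL liver than in any control, with 2.64, 2.57, 2.36 and 2.41 in controls 1 to 4 and 2.0001, 1.97, 2.09 and 2.08 in STL 5 to 8. The difference was small, -0.42 (SE 0.10, 95% interval -0.66 to -0.19) or 1.34-fold, and so was the spread, with a control SD of 0.13 (n = 3) and an STL SD of 0.059 (n = 4). Within the slide columns, where control 1 and control 2 stood as separate arrays, the Cebpd difference lay between -0.64 and -0.26. Cebpb, which binds the same DNA motif and serves the acute phase and liver regeneration, had levels of 5.33, 5.45, 4.89 and 4.49 in controls 1 to 4. In STL 5 to 8 it was 5.69, 4.80, 5.34 and 5.32. STL 6 lay below all controls but control 4, and the difference was 0.36 (SE 0.25, 95% interval -0.21 to 0.93) by one probe and 0.23 by the other. By the first probe it was 0.15 without control 4 and 0.23 without STL 5.

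**Figure D2:**
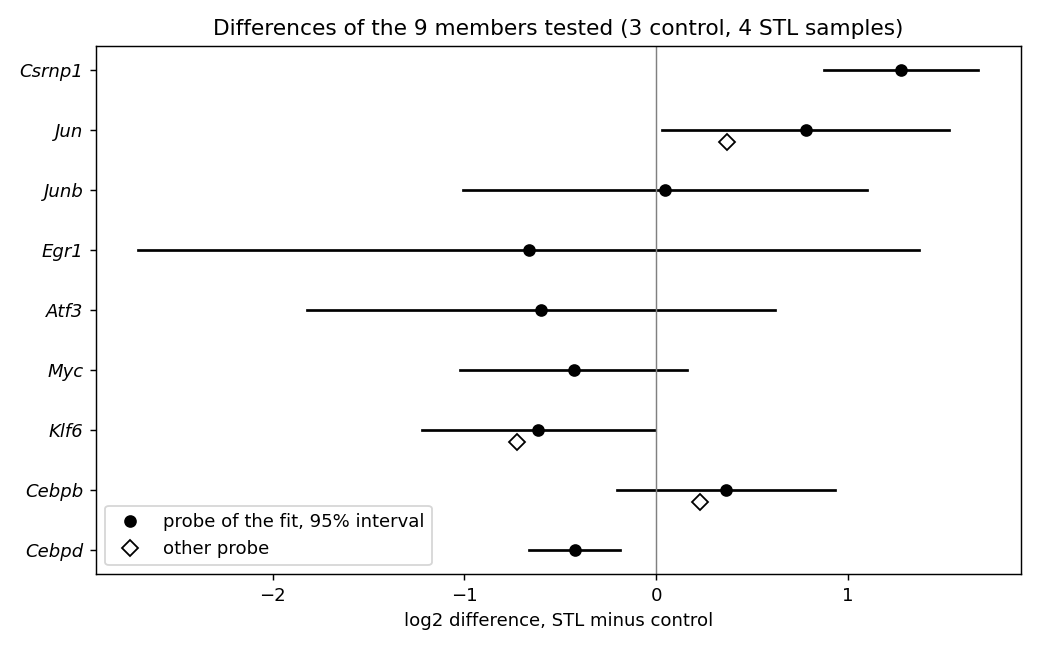
Difference between the means of 4 STL and 3 control samples for the 9 genes tested (horizontal axis, log2), with filled circles and 95% intervals from the limma fit and open diamonds for the other probe of Jun, Klf6 and Cebpb. Csrnp1 lies highest at 1.28, and the other probes fall on the same side of 0 as the probes of the fit.

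Across all genes, limma with Benjamini-Hochberg adjustment placed 1 of 21681 genes (0.00461%) past an adjusted p of 0.05, and 0 of the 9 genes tested here were past it. At an unadjusted p under 0.05 there were 4 of the 9, Csrnp1 and Jun higher and Klf6 and Cebpd lower, where the share over all genes was 19.0% (11.6% higher and 7.41% lower). The samples of the groups did not overlap for 2 of the 9, Csrnp1 and Cebpd, where the share over all genes was 16.9% (11.3% higher and 5.63% lower). Since the contrast was known when the genes were chosen, nothing is read from these counts. The median log2 difference of the 9 genes was -0.42, with a range from -0.66 to 1.28, and that of all genes was 0.06.

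The livers of 1 group differed more in most of these genes than is usual on these arrays. The median SD between livers of 1 group over all genes tested was 0.24. It was 0.91 for Atf3 and 0.78 for Junb, with 97.2% and 95.3% of genes below, and 0.43 for Klf6, 0.42 for Myc and 0.40 for Cebpb. Csrnp1, at 0.26, lay near the middle of all genes. Cebpd, at 0.095, had a smaller spread than all but 4.89% of genes. These values describe 7 samples with 5 degrees of freedom. The Egr1 probe was dim, with 19.3% of genes dimmer still, and Cebpb was bright, with 94.5% dimmer; the part of signal level in the spread was not tested. No liver was high in all the genes. STL 5 was the highest of the 8 arrays in 4 of the 10 genes, Csrnp1, Jun, Atf3 and Cebpb, and the lowest in Myc. STL 8 was the lowest in 3, Egr1, Atf3 and Klf6, and control 4 was the lowest in 3, Csrnp1, Junb and Cebpb, and the highest in Myc and Klf6.

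**Figure D3:**
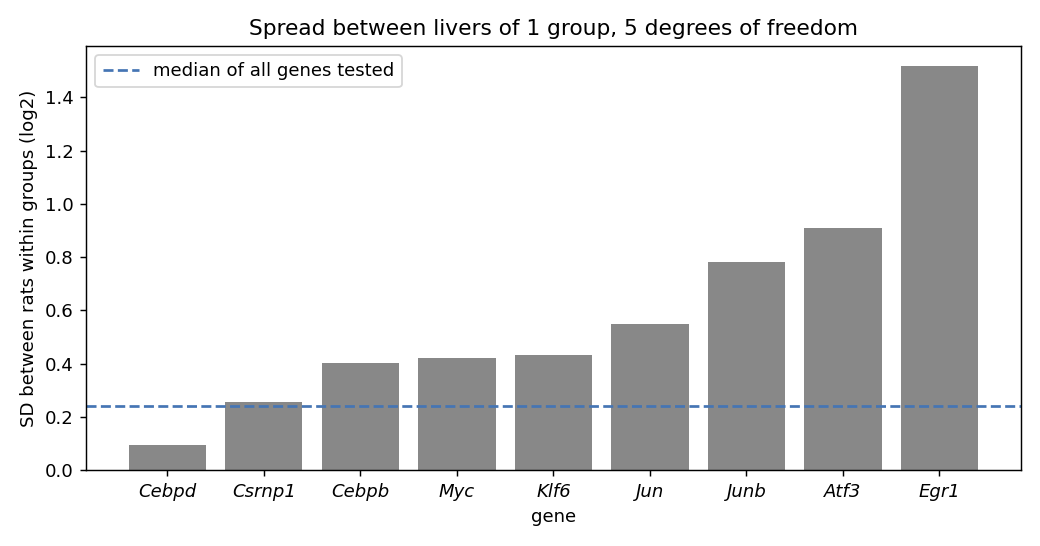
Standard deviation between livers within groups (vertical axis, log2, 5 degrees of freedom) for the 9 genes tested, with the median of all genes tested, 0.24, as a dashed line. Cebpd at 0.095 lies below the line and Egr1 at 1.52 far above it.

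The 5 genes with profiles nearest to that of Csrnp1 are given as a description. None was among the immediate early and early response genes listed here. Only 48 of those, beside the members, were among the genes ranked, so nothing is read from their absence. Nearness was the root mean square difference of the log2 levels over the 7 samples, each gene centred on its own mean, which takes up the group difference that singled Csrnp1 out. Nearest of 21680 genes was Btbd11, a gene of the BTB domain family, at 0.13, with levels of -2.09, -2.28 and -2.76 in the averaged control 1 and 2, control 3 and control 4 and of -1.04, -1.37, -1.26 and -1.01 in STL 5 to 8. Next were Cyp4a1, a fatty acid omega-hydroxylase and a classical PPAR-alpha target, at 0.18, the mitochondrial carrier gene Slc25a48 at 0.18, LOC103691480 at 0.19 and LOC102550356 at 0.19. Cyp4a1 stood at 5.18, 4.05 and 4.23 in the control samples and between 5.54 and 5.84 in STL. Of the other 8 transcription factor genes tested, Cebpb was nearest with 0.49 (10.6% of genes nearer) and Jun followed with 0.60 (32.8%), while Egr1 was farthest with 1.67 (99.0%).

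**Figure D4:**
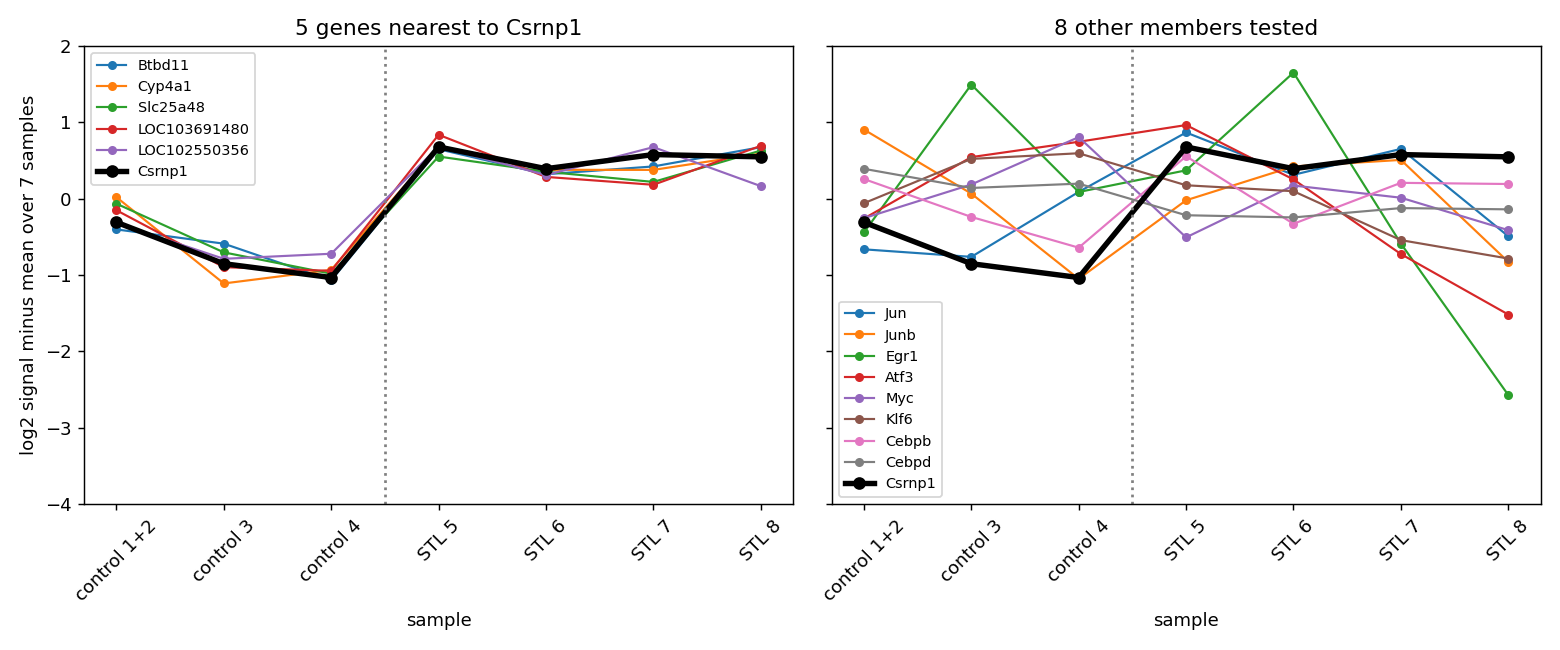
Log2 level minus each gene's mean over 7 samples (vertical axis) for the averaged control 1 and 2, control 3, control 4 and STL 5 to 8 (horizontal axis), with the 5 genes nearest to Csrnp1 on the left and the 8 other genes tested on the right, and Csrnp1 in black in both. On the left the lines follow Csrnp1 within root mean square differences of 0.13 to 0.19, and on the right they cross it, with Egr1 at 1.67.

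Each list of related genes is set beside all genes tested, of which 12592 of 21681 were higher and 41.9% lower, with 19.0% at an unadjusted p under 0.05 (11.6% higher and 7.41% lower). The lists share some genes, among them Errfi1 and Cebpa, so their counts and medians are not separate. The cholangiocyte markers also share Spp1 with the AP-1 targets, and the hepatocyte markers share Fga with the acute phase list. Of 48 other genes of the immediate early and early response, 33 were higher and 15 lower, and 0 passed by limma, with 14 at an unadjusted p under 0.05, 8 higher and 6 lower. The median difference was 0.16, and it was 0.07 without control 4 and 0.10 without STL 5. Trib1, a pseudokinase gene, was at -2.24, -2.30 and -1.86 in the control samples and -0.07, -0.44, -0.99 and -1.27 in STL 5 to 8, without overlap. The log2 difference was 1.44 (limma adjusted p = 0.163), and its other probe gave the same value to 2 decimals. Errfi1, which encodes a feedback inhibitor of the EGF receptor, had 6.04 to 7.22 in the controls and 7.89 to 8.43 in STL, a difference of 1.30 (limma adjusted p = 0.164) by one probe and 1.16 by the other.

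Among the leucine zipper partners of AP-1 and the ATF and CREB factors, 15 of 25 were higher and 10 lower, a split near that of all genes, with 0 past the threshold by limma and 7 at an unadjusted p under 0.05, where the share over all genes was 19.0%. The median was 0.02, and it turned to below 0 with scaling by the array median, with the mean of each gene's probes and without control 4. Ddit3, which encodes CHOP, a factor of the endoplasmic reticulum stress response, differed by 0.49 (limma adjusted p = 0.164), with 2.25 to 2.4 in the controls and 2.73 to 2.93 in STL. Fosb and Fosl1 did not exceed background on the 8 arrays.

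Of the relatives of Csrnp1, Csrnp2 was measured and Csrnp3 was well above background on 2 of 8 arrays. The Csrnp2 probes disagreed, with a difference of 0.33 (limma adjusted p = 0.242) by the brighter and -0.35 by the other, so no direction can be given for the gene. In the EGR family with its NAB co-repressors 4 of 6 genes were tested and 0 passed by limma or reached an unadjusted p under 0.05 (0 of 4). Egr3 differed by 0.37 and Nab1 by -0.37, and both overlapped between the groups; the other 3 probes of Nab1 gave -0.45, -0.30 and 0.05.

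In the KLF and SP family 13 of 17 genes were higher and 4 lower, with a median of 0.24 against 0.06 for all genes. None passed by limma (0 of 17), and 6 were at an unadjusted p under 0.05, 5 of them higher. Klf15, a factor of fasting metabolism and amino acid breakdown in liver, was at 3.73, 3.21 and 2.71 in the control samples and 4.11, 4.60, 4.46 and 4.35 in STL 5 to 8, without overlap (difference 1.16, limma adjusted p = 0.163). Klf13 had -2.07 to -1.44 in the controls and -0.98 to -0.70 in STL (difference 0.88, limma adjusted p = 0.164). Klf6 was thus lower while these relatives were higher, and no test compared them.

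The other 4 genes with C/EBP names were also of both directions, 2 higher and 2 lower. By limma 0 were past the threshold, and 2 were at an unadjusted p under 0.05. Cebpa, the C/EBP factor of the differentiated hepatocyte, differed by 0.83 (limma adjusted p = 0.172), with 4.93 to 5.73 in the controls and 5.82 to 6.37 in STL, and by 0.49 with its other probe. Cebpz, by contrast, was lower in all STL livers, with a difference of -0.33 (limma adjusted p = 0.189). It was listed by its name alone, so the split above is one of names and not of a protein family. The list of 20 C/EBP targets of the acute phase also held Cebpa, which is itself a factor gene and is counted above. Of the 20 genes, 16 were higher and 4 lower. The median was 0.20, and it was -0.08 with quantile normalization and 0.0050 without control 4. By limma 0 passed, and 2 were at an unadjusted p under 0.05, Cebpa and Lcn2, which encodes lipocalin 2. Lcn2 had 0.02, -1.27 and 0.88 in the control samples and -1.12, -0.71, -1.105 and -1.75 in STL 5 to 8, with overlap (difference -1.05, limma adjusted p = 0.260).

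Relatives, partners and antagonists of MYC were evenly split, with 6 higher and 6 lower of 12. By limma 0 passed, and 1 was at an unadjusted p under 0.05, Mycl, at -1.24, -1.33 and -0.95 in the control samples and -2.08, -1.29, -1.995 and -2.10 in STL 5 to 8 (difference -0.69, limma adjusted p = 0.190). Its other probe differed by 0.24. Mxd1, a MAX partner that opposes MYC, differed by 0.32 (limma adjusted p = 0.304). Of 29 MYC target genes of ribosome and nucleotide synthesis 23 were lower and 6 higher, by a median of -0.12, and 41.9% of all genes were lower. None passed by limma (0 of 29), and 9 were at an unadjusted p under 0.05, 8 lower and 1 higher. Ppan, which encodes a ribosome assembly factor, was lower in all STL livers, with 3.08 to 3.52 in the controls and 2.72 to 2.97 in STL (difference -0.56, limma adjusted p = 0.172). Polr1b, which encodes a subunit of RNA polymerase I, had -0.88 to -0.70 in the controls and -1.45 to -1.10 in STL (difference -0.51, limma adjusted p = 0.176).

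Genes known as AP-1 targets were mostly lower in STL, 17 of 19, with a median of -0.42, where 41.9% of all genes were lower. By limma 0 passed, and 6 were at an unadjusted p under 0.05, all 6 lower, where the share of all genes lower at that p was 7.41%. Ccnd1, which encodes cyclin D1, was at 1.76, 2.11 and 2.46 in the control samples and 0.30, 1.37, 0.60 and 0.34 in STL 5 to 8 (difference -1.45, limma adjusted p = 0.162), and its other probe differed by -1.03. Vim, which encodes vimentin, a filament protein of mesenchymal cells, was at 0.40, 0.68 and 1.60 in the control samples and between -0.23 and 0.15 in STL (difference -0.88, limma adjusted p = 0.179). The list median was -0.17 without control 4 and -0.69 with control 1 and 2 both left out. Stellate cell markers were also lower, in 7 of 9 genes, and their summed level was 49.6 to 98.3 times the 75th percentile in the controls, highest in control 4, and 32.2 to 47.4 in STL. The 6 neutrophil and mast cell markers measured summed to 2.88 to 3.54 in the controls and 1.61 to 2.68 in STL, with 5 of 6 lower. Mpo, Elane, Cxcr2 and Ms4a2 were not well above background on 4 arrays. The 11 macrophage markers summed to 181 to 188 in the controls and 141 to 182 in STL, with 9 of 11 lower. Cholangiocyte markers summed to 5.32 to 12.3 and 2.47 to 6.19, with 7 of 8 lower, and hepatocyte markers to 2968 to 4232 and 4122 to 5899, with 10 of 11 higher. Lymphocyte markers summed to 13.6 to 18.2 in the controls and 13.7 to 19.7 in STL, with 7 of 8 higher. Cd3e, Ms4a1 and Klrb1 were not well above background on 4 arrays. Endothelial markers summed to 66.3 to 92.7 and 90.5 to 121, with 5 of 8 higher, and erythroid markers to 111 to 222 and 127 to 343, with 5 of 6 higher. The part of these cell types in the differences given here was not tested. In whole liver fewer cells of a type and less RNA per cell cannot be told apart.

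Upstream kinases and serum response factors were near the middle of all genes, with 17 of 26 higher and a median of 0.11. By limma 0 passed, and 5 were at an unadjusted p under 0.05, 4 higher and 1 lower. Elk3, a ternary complex factor that works with serum response factor, was lower in all STL livers, with 0.46 to 0.95 in the controls and -0.04 to 0.38 in STL (difference -0.49, limma adjusted p = 0.190). Map2k2, which encodes the kinase MEK2, differed by 0.35 (limma adjusted p = 0.199). Of 16 feedback inhibitors of MAP kinases and of early mRNA 11 were higher and 5 lower, with a median of 0.07 (0.04 without STL 5, 0.15 without STL 6, 0.10 without STL 7 and 0.18 without STL 8) and 0 past the threshold by limma, and 4 were at an unadjusted p under 0.05. Errfi1 is given above. The probes of Zfp36l2, whose protein destabilises mRNA with AU-rich elements, differed by 0.49, 0.60 and -0.09, and the first of these had a limma adjusted p of 0.205.

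**Figure D5:**
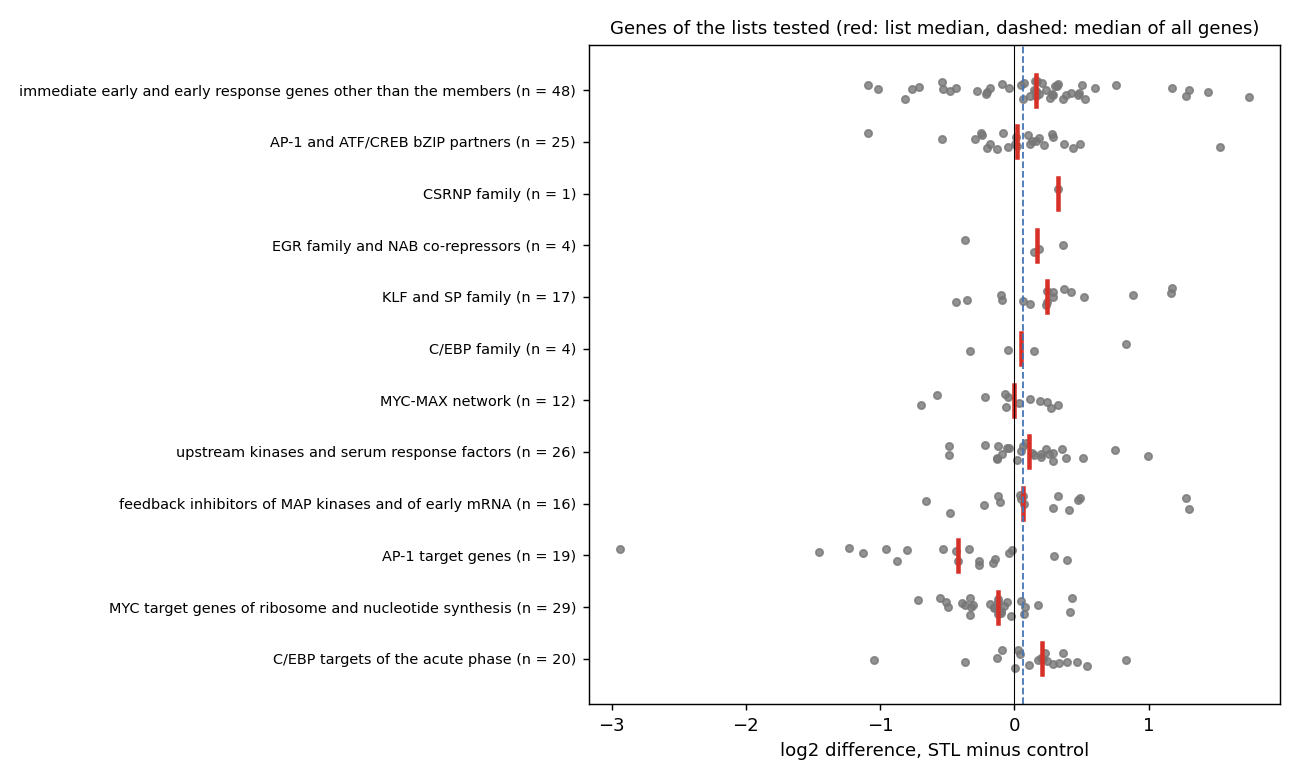
Log2 difference between STL and control means (horizontal axis) of each gene tested in 12 lists (grey points, jittered vertically), with the list median in red and the median of all genes, 0.06, as a dashed line. The AP-1 target list lies farthest to the left with a median of -0.42, and the KLF and SP list has a median of 0.24.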

How the data were processed

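Per the labels' protocols, total RNA of each liver became Cy3 cRNA for a 1-colour Agilent array. The deposited scanner files hold the intensity of each spot, made with Agilent Feature Extraction, version 10.7 per the submitters' processing notes. The file headers give 11.5.1.1 as the version of the grid placement. In the authors' deposited series table each column was 1 array's processed intensity times a constant (linear, not centred), with medians of 42.1 to 48.9. In 6 of its 8 columns the array was another one of the same group than the label names, which leaves the order of rats within a group unsettled. It was used as an alternative only.

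Of 62976 spots, 58717 were not controls and held 45598 probes. Spots flagged as outliers were left out, spots of a probe were averaged on the linear scale, and log2 of the mean minus the array's 75th percentile was the level. Probes were named through RefSeq accessions (GRCr8; 23863), symbols (5124) or synonyms (351), and 16260 kept the file's name. Each gene was read from its brightest probe. The 21681 genes detected above background on 4 or more arrays entered a two-sided limma 3.58.1 fit (R 4.3.3; eBayes, trend on mean intensity) with Benjamini-Hochberg adjustment. The fit was tested on simulated data. Plots were drawn with matplotlib 3.10.9.

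Control 1 and 2 were averaged since their ratio to spot noise was under 1.5. The labels count 4 rats per group, and nothing says how that pair arose. The genes and lists were chosen with earlier results of these data known. Named from each list were at most 4 genes past the threshold, or otherwise the 2 with the smallest unadjusted p, and the 5 genes nearest to Csrnp1. One gene that this rule names is not reported here. Alternatives covered samples, normalization, background, filter, probe choice, slide column, weights, variance trend and flagged spots.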

Additional observations from a re-analysis of the deposited data

Results flagged for a closer look

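Within the 4 STL livers Mycl stood apart in 1 liver. STL 6, at -1.29, lay away from the other 3, at -2.10 to -1.995, and its gap to the nearest was 0.87 of the whole range, above the 95% limit of 0.829 for 4 samples. Of 34 groups of samples examined in this way 1 held such a liver, and chance alone places about 1 in 20 groups.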

How the results depend on the processing

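Over 21 alternatives the Csrnp1 difference stayed between 1.102 (normexp) and 1.49 (control 1 and 2 both left out). The Cebpd difference stayed between -0.48 and -0.35. Jun, Atf3, Myc, Klf6 and Cebpb kept their direction in all 21, though single livers moved Atf3, Myc and Cebpb by over 1.5 times. Junb changed sign in 6, between -0.47 without control 4 and 0.51 with control 1 and 2 both left out, and Egr1 in 2, of 20, to 0.10 without STL 8 and to 0.03 with normexp. The count of genes past the threshold, 1, was 21 with each array as a sample, 214 with control 1 and 2 both left out, 1588 with array weights, and 1 to 46 when samples were left out singly, with 46 without STL 6 and 3 without control 3. With control 1 and 2 both left out, 214 of all 21681 genes were past the threshold, and 1 of the 9 genes tested here, Csrnp1. With array weights it was 1588 of 21681, and 2 of the 9, Csrnp1 and Cebpd. These counts are a description, since the same arrays had chosen Csrnp1. In the lists, with control 1 and 2 both left out, 1 of 48 early response genes, 1 of 25 AP-1 partners and 2 of 17 KLF and SP genes passed. It was 1 of 4 in the C/EBP list and 1 of 20 in the acute phase list. With array weights the counts in these lists were 7, 4, 4, 1 and 1 in the same order. Further, 1 of 26 upstream kinases, 1 of 16 feedback inhibitors, 4 of 19 AP-1 targets and 1 of 29 MYC targets passed. The lists share some genes, so 1 gene can count in more than 1 list, and nothing is read from these counts. Leaving out single samples gave 0 to 1 for early response genes and for AP-1 targets, with the 1 in each without STL 6, and 0 for the other lists. The medians of the list of C/EBP names and of the list of MYC relatives and partners changed sign in 5 and 9 alternatives. The number of the 9 genes at an unadjusted p under 0.05 ranged from 2 to 5. It was 5 with control 1 and 2 both left out, where 4955 of 21681 genes were at that p. It was 2 without control 3, without STL 7, with the slide column as a block and with no intensity trend. There the counts over all 21681 genes were 2818, 3324, 3887 and 3874 in the same order. The fits with control 1 or control 2 alone for the averaged sample were chosen after seeing the data. The causes of these shifts were not tested. The labels number the rats 1 to 8 with no number shared between groups, so replicate numbers paired no samples. Slide column, which held 1 array of each group, was also fitted as a block over 8 arrays. The Csrnp1 difference was then 1.17 and 0 of the 9 genes passed. That fit counted control 1 and control 2 as separate samples. The number of arrays limits the precision, and Fos was too dim to compare.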

Other observations

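Among the early response genes tested, the largest difference was that of Gadd45g, which encodes a stress-induced protein of the GADD45 family, named after its values were seen. Its level was 3.61, 3.84 and 2.76 in the averaged control 1 and 2, control 3 and control 4, and 5.85, 5.88, 4.12 and 4.76 in STL 5 to 8, without overlap. The log2 difference was 1.75 (SE 0.45, limma adjusted p = 0.172, not past the threshold). Also named after its values were seen, Klf9, a Krüppel-like factor that glucocorticoids induce, was at 3.02, 2.34 and 2.01 in the control samples and 4.12, 3.75, 3.22 and 3.44 in STL 5 to 8, a difference of 1.18 (limma adjusted p = 0.170). Among AP-1 targets Mmp12, which encodes a macrophage elastase, had the largest difference, -2.94 (SE 0.89, limma adjusted p = 0.182), also seen before it was named. It was at -1.49, 0.19 and 0.72 in the control samples and -4.29, -0.80, -2.85 and -4.57 in STL 5 to 8, and the groups overlapped through STL 6.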
